A study of Mus musculus with 8 samples.

Results

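The thioredoxin and peroxiredoxin system was examined in cultured fetal mouse neural stem and progenitor cells through 10 genes, which are 10 of the 27179 genes counted in the series. They encode the thioredoxins (Txn1, Txn2), their reductases (Txnrd1, Txnrd2), the thioredoxin-binding protein Txnip, sulfiredoxin (Srxn1) and 4 peroxiredoxins (Prdx1, Prdx2, Prdx5, Prdx6). The genes were chosen by name with the fold changes between the genotypes of these same libraries already known. Levels, fold changes and calls of the 10 are therefore a description, with no test read from them. All 10 passed the filter on low counts.

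Neurosphere cultures numbered 8. Of these, 4 of the Kat7 deleted genotype (Kat7 lox/lox with the NesCre transgene) were compared with 4 of the Kat7 intact genotype (Kat7 +/+ with the same transgene), all of strain C57BL/6 and each from 1 fetus of stage E14.5. Kat7 encodes a histone acetyltransferase, and NesCre is a Cre recombinase driven by Nestin regulatory sequence, active in neural precursors. Both genotypes carried the recombinase, but the intact animals had no lox sites in Kat7. Neurospheres are free-floating clumps of neural precursors kept dividing in growth medium. The 6 litters held 1 genotype each, 3 litters per genotype, so an effect of litter cannot be told apart from one of genotype. Deleted replicates 3 and 4 shared a litter, as did intact replicates 1 and 2.

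Thioredoxins are small proteins that reduce disulfides in other proteins, and thioredoxin reductases recharge them with electrons from NADPH. Peroxiredoxins destroy hydrogen peroxide and most draw their electrons from thioredoxin. When peroxide is plentiful, the active cysteine of the typical peroxiredoxins can be over-oxidised, and sulfiredoxin repairs it. Txnip, an arrestin-like protein, binds reduced thioredoxin and also limits glucose uptake. Several genes of the system are textbook targets of the transcription factor NRF2, which is held in check by KEAP1.

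Libraries held 10687817 to 18280518 counts in the deleted and 13403953 to 22444359 counts in the intact genotype, and 1 read was worth between 0.0436 and 0.0918 CPM. CPM here are the usual depth-scaled counts with TMM-adjusted library sizes. An error after ± is the SD across 4 libraries unless given as an SE. Kat7 stood at 26.4, 0.367, 13.9 and 0.087 CPM in deleted replicates 1 to 4, against 85.8, 77.1, 81.0 and 92.1 CPM in intact replicates 1 to 4, so deleted replicates 1 and 3 kept Kat7 reads. Which exons the deletion removes is not given in the sources used here, so such reads may come from exons that remain. Kat7 had a log2 fold change of -3.02 ± 1.102 and was not called (edgeR adjusted p = 0.128). The mitochondrial genome took 29.9%, 19.0%, 17.1% and 34.4% of the counts in deleted replicates 1 to 4, against 19.0% to 23.5% in the intact genotype. All 11 neural stem cell markers had reads in every library, at a summed 3810 to 6080 CPM in deleted and 5230 to 6310 CPM in intact libraries, with Vim the most abundant. Red cell markers, of interest because red cells are rich in Prdx2, summed to 0.380 to 2.17 CPM in deleted and 0.658 to 1.09 CPM in intact libraries, with 4 to 6 of 9 genes at 0 and Alas2 the most abundant. Microglial markers summed to 0.609 to 2.41 CPM and 2.69 to 3.59 CPM, led by P2ry12. Endothelial markers summed to 2.66 to 21.6 CPM and 3.84 to 9.09 CPM, led by Tek. Of 3 endothelial markers tested 1 was called lower and 0 higher, with 2 fitted above 0. The called marker was Kdr, named after its values were seen and low in both genotypes. It had 0.0663 ± 0.0481 CPM in deleted and 0.841 ± 0.207 CPM in intact libraries (edgeR adjusted p = 0.0116). Neuron markers, led by Map2, summed to 927 to 1270 CPM in deleted and 1130 to 1190 CPM in intact libraries, a sum made up mostly of Map2. Of 8 neuron markers tested 2 were called lower and 0 higher, with a median log2 fold change of -0.44. These were Neurod1 and Elavl3, named after their values were seen, at 0.100 and 0.207 of the intact level (edgeR adjusted p = 0.0104 and 0.0116). The neuron markers did not share a direction, with 6 fitted below 0 and 2, Dcx and Snap25, above. Dcx had the highest log2 fold change, 4.70, with 25.3 ± 50.2 CPM in deleted and 0.951 ± 0.261 CPM in intact libraries (edgeR adjusted p = 0.178). Astrocyte markers, led by Slc1a3, summed to 4030, 549, 1020 and 930 CPM in deleted replicates 1 to 4, against 887, 614, 1460 and 806 CPM in intact replicates 1 to 4. That sum is carried by Slc1a3, which was not called. Of 9 astrocyte markers tested 4 were called higher and 0 lower, all 9 were fitted above 0, and the median log2 fold change was 1.90. The called markers, named after their values were seen, were Aqp4 (18.9-fold), Clu (11.1-fold), Apoe (3.74-fold) and Fgfr3 (2.98-fold), with edgeR adjusted p = 0.00483, 0.0287, 0.0134 and 0.0128. Oligodendrocyte lineage markers, led by Olig1, summed to 1700, 449, 1620 and 976 CPM, against 1360 to 1720 CPM. Mural and fibroblast markers, led on average by Col3a1, summed to 3.23, 612, 8.35 and 110 CPM, against 1.85 to 2.44 CPM. Col3a1 stood at 334 CPM in deleted replicate 2 and at 0.087 to 0.220 CPM in the other deleted libraries. Of 2 mural and fibroblast markers tested 1 was called higher and 0 lower. This was Acta2, named after its values were seen, with 76.6 ± 90.3 CPM in deleted and 0.743 ± 0.0877 CPM in intact libraries (edgeR adjusted p = 0.0322).

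Sequence upstream of the 2 genes that passed the threshold below, Srxn1 and Txnrd1, and of Prdx1 is shown because NRF2 acts through short elements near start sites. Each run is RefSeq sequence of GRCm38.p6, from 250 bases before to 50 bases after an annotated start, written 5′ to 3′ on the gene's strand. Capitals mark matches, on either strand, to TGACNNNGC, the core of the antioxidant response element, or to TGANTCAGC, the form preferred by NRF2 with a small MAF partner. The second form was added after the sequences had been seen, and the forms overlap where the open base is C. Srxn1 lies at chr2:152105274-152105573 (plus strand), Prdx1 at chr4:116685349-116685648 (plus strand) and Txnrd1, shown for the 1 of its 3 annotated starts with a match, at chr10:82858956-82859255 (plus strand).
Srxn1: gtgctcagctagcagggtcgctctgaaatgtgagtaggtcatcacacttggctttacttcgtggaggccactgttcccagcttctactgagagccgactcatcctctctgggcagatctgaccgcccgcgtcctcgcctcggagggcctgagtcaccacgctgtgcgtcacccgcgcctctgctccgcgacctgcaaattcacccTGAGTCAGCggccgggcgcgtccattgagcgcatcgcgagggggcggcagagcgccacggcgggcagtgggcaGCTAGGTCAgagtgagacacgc
Prdx1: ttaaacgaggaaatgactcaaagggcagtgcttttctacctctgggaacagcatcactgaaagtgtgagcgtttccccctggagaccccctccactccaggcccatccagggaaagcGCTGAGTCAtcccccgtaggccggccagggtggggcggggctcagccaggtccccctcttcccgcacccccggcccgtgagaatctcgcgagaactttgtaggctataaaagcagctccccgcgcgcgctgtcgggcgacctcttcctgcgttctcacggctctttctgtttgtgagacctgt
Txnrd1: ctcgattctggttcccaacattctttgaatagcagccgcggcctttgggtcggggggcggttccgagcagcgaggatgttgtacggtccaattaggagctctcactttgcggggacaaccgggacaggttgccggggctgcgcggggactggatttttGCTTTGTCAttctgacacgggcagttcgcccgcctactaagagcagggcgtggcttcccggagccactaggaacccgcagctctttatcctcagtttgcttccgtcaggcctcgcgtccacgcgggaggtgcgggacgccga

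In Srxn1 TGAGTCAGC began 45 bases before the start, and the core form lay on the other strand, in GCTAGGTCA, which began at base 29 of the transcript. In Prdx1 GCTGAGTCA, the reverse complement of both forms, began 133 bases before the start. In Txnrd1 GCTTTGTCA, a reverse complement of the core form only, began 92 bases before the start. Entries were found for 9 of the 10 genes, with 11 start sites in all. TGACNNNGC occurred in 3 of these 11 promoters, against 12.4% of 32851 promoters of the same length and 14.1% of the 13138 of tested genes. TGANTCAGC occurred in 2 of 11, against 1.19% and 0.913%. Nothing is read from that count, since the form was added after the sequences had been seen. CACGTG, an E-box, occurred in 0 of 11, against 7.15% and 9.82%. Only this exact form was searched. The Txnip window holds the near form CACGAG, in the run cacgagggctgcacgag, which was not counted. These matches are letters in a window and not measured binding sites.

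Txn1 was by far the most abundant transcript of the system and Txnip among the least. TPM allow for gene length but were made without the TMM adjustment, so their genotype differences need not match those of the fit. They put Txn1 at 1706 ± 446 in deleted and 1334.5 ± 395 in intact libraries (SD, n = 4 each). It ranked 33 among all tested genes in the intact genotype. In the intact genotype Prdx2 followed, with 456 ± 70.1 TPM in deleted and 596 ± 45.1 TPM in intact libraries, then Prdx1, with 460.5 ± 59.4 and 461 ± 76.2 TPM. In the deleted genotype the means of Prdx1 and Prdx2 stood in the other order and their ranges overlapped. In the intact genotype the ranges of Prdx2 and Prdx1 overlapped across libraries, although Prdx2 was the higher of the pair in each of the 4. Txnrd1 stood at 106 ± 18.3 TPM in deleted and 172 ± 10.7 TPM in intact libraries. Prdx6 stood at 123 ± 39.2 and 149.9 ± 13.4 TPM and Prdx5 at 214 ± 76.4 and 142 ± 18.1 TPM, and the intact ranges of Txnrd1, Prdx6 and Prdx5 overlapped. The mitochondrial thioredoxin Txn2 had 45.6 ± 11.5 TPM in deleted and 53.4 ± 3.89 TPM in intact libraries, and Srxn1 had 58.5 ± 11.8 and 24.3 ± 2.89 TPM, so the order of these means differed between genotypes, with overlapping ranges in the deleted one. Txnrd2, at 7.99 ± 1.32 and 6.18 ± 1.39 TPM, and Txnip, at 13.0 ± 12.5 and 5.68 ± 2.90 TPM, were lowest and overlapped.

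**Figure D1:**
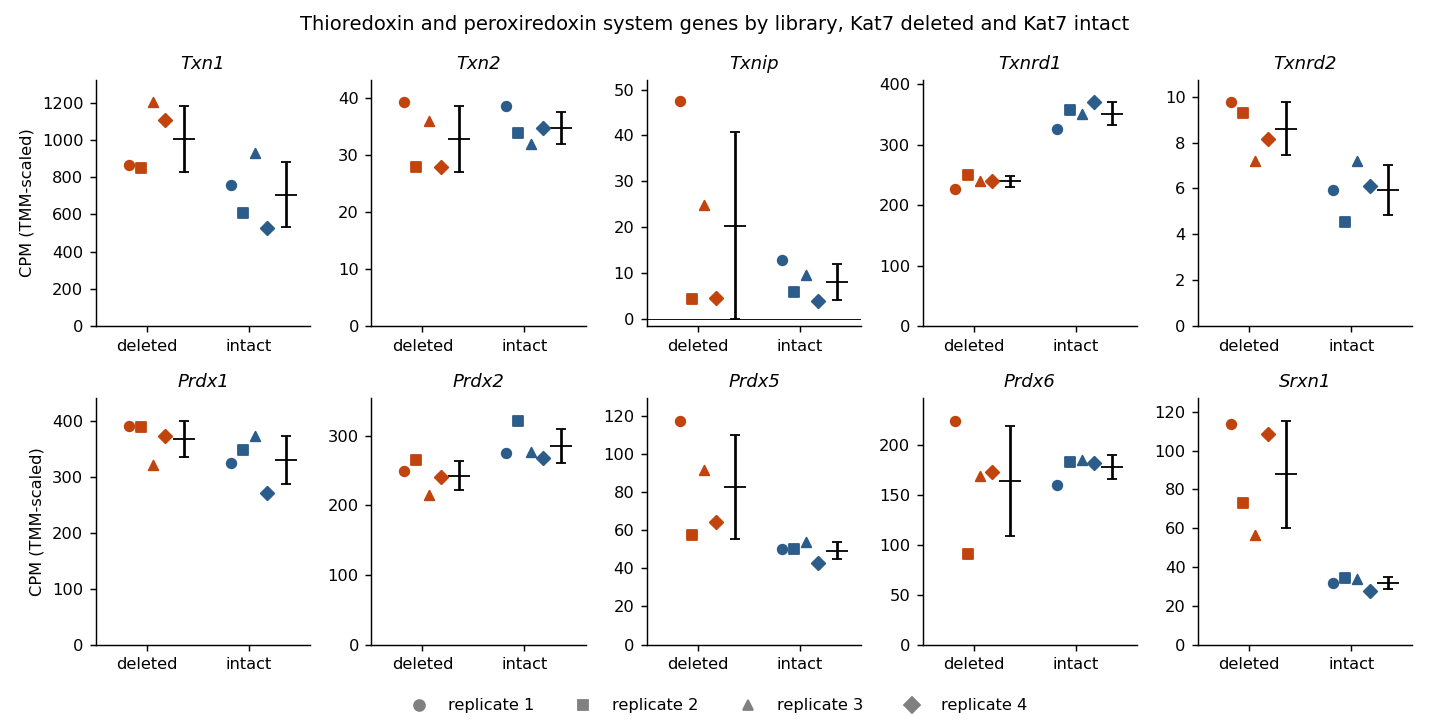
Level of each of the 10 genes in TMM-scaled CPM (linear axes) in the 4 Kat7 deleted libraries (left in each panel) and the 4 Kat7 intact libraries (right). Points are libraries with a marker per replicate, and bars are mean ± SD. Srxn1 lay at 56.6 CPM or more in deleted libraries and at 34.2 CPM or less in intact ones, and Txnrd1 at 249.8 CPM or less against 326 CPM or more.

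Sulfiredoxin was higher in every deleted culture and the cytosolic thioredoxin reductase lower in every one. Of the 10 genes 1 was called higher and 1 lower (adjusted p under 0.05 over all 13498 genes tested, edgeR quasi-likelihood test), beside 5.10% of all tested genes called higher and 2.80% called lower, 7.90% together. The genotypes did not overlap for 5 of the 10, beside 19.9% of all tested genes. Nothing is read from these shares, since the genes were named with the contrast known. The median log2 fold change of the 10 was 0.34, beside 0.05 over all tested genes, and 6 were fitted above 0 and 4 below. Scaling by total counts moved the median of all genes to -0.09, a shift of every gene that leaves ratios within a library as they are.

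Srxn1 encodes sulfiredoxin, which uses ATP to restore over-oxidised peroxiredoxins. It had 114, 73.0, 56.6 and 108 CPM in deleted replicates 1 to 4, against 31.9, 34.2, 33.6 and 27.4 CPM in intact replicates 1 to 4. The lowest deleted culture lay above the highest intact one, and deleted replicates 1 and 4 were the highest. In bulk RNA, a change in the share of cells of a type and a change in RNA per cell cannot be told apart. The Srxn1 mean was 87.9 ± 27.6 CPM in deleted and 31.8 ± 3.07 CPM in intact libraries, a 2.77-fold difference with a log2 fold change of 1.47 ± 0.23 (approximate SE). Deleted replicates 1 and 4 were also the libraries with the highest mitochondrial share. Aqp4, an astrocyte marker picked after its values were seen, was likewise highest in that pair. It had 38.1, 15.1, 11.4 and 31.3 CPM in deleted replicates 1 to 4, against 0.916 to 1.91 CPM in the intact genotype. The summed astrocyte list, at 4030, 549, 1020 and 930 CPM in deleted replicates 1 to 4, was instead highest in replicates 1 and 3. The part of astrocyte marker RNA in the Srxn1 value was not tested. Without deleted replicates 1 and 4 the Srxn1 log2 fold change was 1.00 and the gene was still called. The deleted littermates, replicates 3 and 4, differed nearly as much as any deleted pair, at 56.6 and 108 CPM. Srxn1 lost its call without intact replicate 4, where its log2 fold change was 1.38.

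Set against its substrates, sulfiredoxin mRNA was also higher in each deleted library. Per 100 TPM of the typical peroxiredoxins Prdx1 to Prdx4 there were 6.23, 3.94, 3.73 and 6.30 TPM of Srxn1 in deleted replicates 1 to 4, against 1.83, 1.75, 1.78 and 1.74 TPM in intact replicates 1 to 4. The 4 intact values lay close together, and the lowest deleted value was well above them. A ratio within a library does not depend on library scaling, but shows only that the transcripts changed unequally.

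Txnrd1 encodes the cytosolic thioredoxin reductase, a selenoprotein that keeps Txn1 reduced. It had 227, 249.8, 240.45 and 239.8 CPM in deleted replicates 1 to 4, against 326, 357, 352 and 370.4 CPM in intact replicates 1 to 4. The genotypes were far apart and the libraries within each were close. Means were 239 ± 9.57 CPM in deleted and 351 ± 18.7 CPM in intact libraries, a fold of 0.681 and a log2 fold change of -0.55 ± 0.11. Its SD of log2 CPM among deleted cultures was 0.06, and 0.645% of tested genes had a smaller one. Its log2 fold change ran from -0.69 to -0.52 over all alternatives. The call was lost with littermates summed, with the replicate number as a block and whichever intact library was left out. Calls over all genes, 1066 as reported, numbered 189 to 261 with 1 intact library left out. Counts per gene do not separate its 3 annotated start sites.

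Srxn1 and Txnrd1, both textbook NRF2 targets, thus lay on opposite sides. Srxn1 stood at 78.0, 45.5, 36.6 and 70.3 TPM per 100 TPM of Txnrd1 in deleted replicates 1 to 4, against 15.2, 14.9, 14.9 and 11.5 TPM in intact replicates 1 to 4. Per 100 TPM of Txn1, its substrate, Txnrd1 stood at 6.86, 7.69, 5.23 and 5.66 TPM in deleted replicates, against 11.2, 15.4, 9.92 and 18.3 TPM in intact replicates. No deleted library reached the lowest intact one in that ratio.

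Txn1, the cytosolic and nuclear thioredoxin, was not called. It had 864, 849.6, 1202 and 1109 CPM in deleted replicates 1 to 4, against 758, 609, 927 and 528 CPM in intact replicates 1 to 4. Intact replicate 3 lay above deleted replicates 1 and 2, so the genotypes overlapped, and the log2 fold change was 0.51 ± 0.22. The intact cultures differed more for Txn1 than for most genes, with an SD of log2 CPM of 0.36, and 82.0% of tested genes had a smaller one. Txn2, the mitochondrial thioredoxin, had 39.2, 27.8, 36.02 and 27.8 CPM in deleted replicates, against 38.6, 33.9, 31.8 and 34.7 CPM in intact replicates. Deleted libraries lay on both sides of the intact range, and the log2 fold change was -0.08 ± 0.15.

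Txnrd2, the mitochondrial thioredoxin reductase, had few reads and was not called. It stood at 9.76, 9.27, 7.19 and 8.17 CPM in deleted replicates 1 to 4 (154, 101, 131 and 94 reads), against 5.92, 4.54, 7.19 and 6.11 CPM in intact replicates 1 to 4 (83, 76, 147 and 140 reads). Deleted replicate 3 and intact replicate 3 were level to 3 digits, so the genotypes barely separated, and the log2 fold change was 0.53 ± 0.21. Of the summed TPM of the 3 reductases, Txnrd1 made up 86.2% ± 1.68 in deleted and 92.4% ± 0.750 in intact libraries. Txnrd2 made up 6.54% ± 0.930 and 3.31% ± 0.626, and Txnrd3, the reductase best known from testis and no member of the 10, 7.28% ± 1.32 and 4.27% ± 0.723 (SD, n = 4 each).

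Txnip split the deleted cultures. It had 47.4, 4.41, 24.8 and 4.61 CPM in deleted replicates 1 to 4 (748, 48, 452 and 53 reads), against 12.8, 5.80, 9.59 and 3.84 CPM in intact replicates 1 to 4 (179, 97, 196 and 88 reads). Deleted replicates 1 and 3 lay above every intact library, while deleted replicates 2 and 4 lay within the intact range. The log2 fold change was 1.35 ± 0.77 and the gene was not called. Deleted replicates 3 and 4 were littermates, and so were intact replicates 1 and 2, at 12.8 and 5.80 CPM, so Txnip varied within litters of both genotypes. Among deleted cultures its SD of log2 CPM was 1.71, larger than that of 95.8% of tested genes, and among intact cultures it was 0.75, larger than that of 97.3%.

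Deleted replicates 1 and 3 were also the cultures that kept Kat7 reads. They had the highest summed oligodendrocyte lineage and astrocyte marker RNA, although the astrocyte marker Aqp4 was highest in deleted replicates 1 and 4. The intact libraries with the most astrocyte marker RNA, replicates 1 and 3, were also those with the most Txnip, while the oligodendrocyte lineage sum there was highest in replicates 1 and 2. The part of any of these in the Txnip values was not tested. Leaving out deleted replicates 1 and 3 turned the log2 fold change to -0.82, and leaving out deleted replicate 1 alone gave 0.52. Arrdc4, a related arrestin that like Txnip is known as a target of the glucose-sensing factor MondoA, was also high in that pair, at 28.6, 7.53, 23.6 and 8.78 CPM in deleted replicates 1 to 4, against 14.7, 12.4, 15.5 and 17.0 CPM in intact replicates 1 to 4. Unlike Txnip, it lay below every intact library in deleted replicates 2 and 4. Arrdc4 was picked for this pattern after its values were seen. In the intact genotype the libraries fell in another order, with intact replicate 4 highest for Arrdc4 and lowest for Txnip. The long noncoding RNA gene Gm15441, which spans Txnip, had 6 reads over all 8 libraries.

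**Figure D2:**
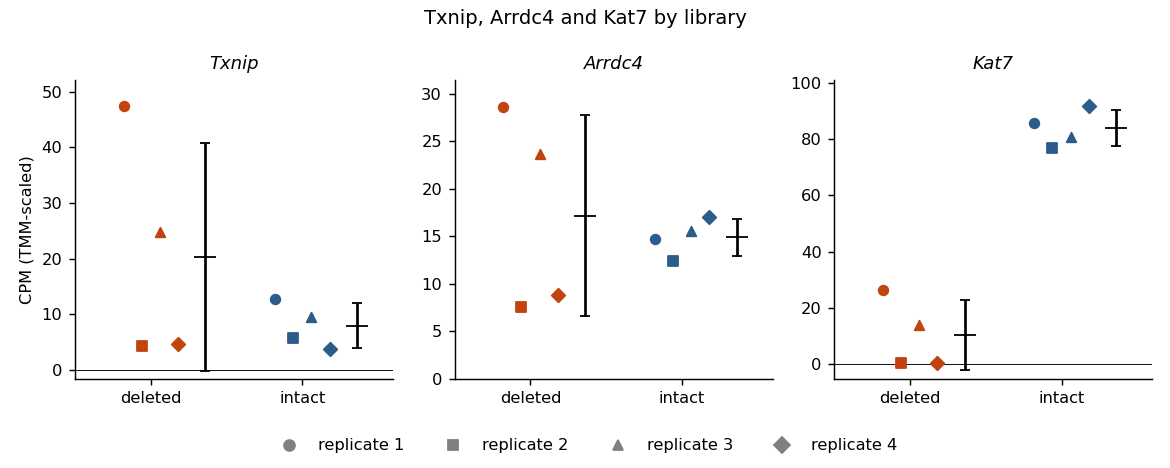
TMM-scaled CPM (linear axes) of Txnip, Arrdc4 and Kat7 in the 4 Kat7 deleted libraries (left in each panel) and the 4 Kat7 intact libraries (right), with a marker per replicate and mean ± SD as bars. Deleted replicates 1 and 3 stand above deleted replicates 2 and 4 in all 3 panels, for Txnip at 47.4 and 24.8 CPM against 4.41 and 4.61 CPM.

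Among the peroxiredoxins no gene was called and the members did not share a direction. Prdx5, an atypical peroxiredoxin found in mitochondria, peroxisomes and cytosol, was higher in every deleted culture. It had 118, 57.4, 91.5 and 64.6 CPM in deleted replicates 1 to 4, against 50.2, 50.4, 53.7 and 43.0 CPM in intact replicates 1 to 4. Deleted replicates 1 and 3 were the highest, and deleted replicate 2 lay just above the intact range. Means were 82.8 ± 27.5 CPM in deleted and 49.3 ± 4.53 CPM in intact libraries, with a log2 fold change of 0.75 ± 0.22. It passed the threshold with DESeq2, with limma-voom and sample weights and without deleted replicate 2. Deleted replicates 1 and 3 were again the cultures that kept Kat7 reads, and without them the log2 fold change was 0.30. Prdx5 overlaps Trmt112 by 409 bases, and reads there cannot be told apart without a stated strand setting. Trmt112 had 12.7 ± 1.89 CPM in deleted and 12.5 ± 0.938 CPM in intact libraries, and was not called.

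Prdx2, a typical cytosolic peroxiredoxin, was lower in every deleted culture by a small margin. It had 248.5, 265, 215 and 241 CPM in deleted replicates 1 to 4, against 274, 321, 277 and 268 CPM in intact replicates 1 to 4. The highest deleted and the lowest intact library were 265 and 268 CPM, and the log2 fold change was -0.24 ± 0.12. Prdx1, its close relative and a textbook NRF2 target, had 391, 389, 322 and 373 CPM in deleted replicates, against 326, 348, 374 and 272 CPM in intact replicates. Intact replicate 3 lay above 2 deleted libraries, and the log2 fold change was 0.16 ± 0.14, moving to 0.01 with scaling by total counts.

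Prdx6, a peroxiredoxin with a single active cysteine that uses glutathione, varied more among deleted than among intact cultures. It had 224, 90.7, 168 and 173 CPM in deleted replicates 1 to 4, against 159, 182, 185 and 182 CPM in intact replicates 1 to 4. Deleted replicate 1 was the highest and deleted replicate 2 the lowest of all 8 libraries. Deleted replicate 2 also had the most mural and fibroblast and the least oligodendrocyte lineage marker RNA, and their part in the Prdx6 value was not tested. The log2 fold change was -0.11 ± 0.24 and turned to 0.09 without deleted replicate 2. RefSeq lists a second coding copy, Prdx6b, with 514 reads over all libraries, and pseudogene copies of Txn1, Prdx1, Prdx2 and Prdx6 that the count table does not hold as rows of their own. How reads shared with such copies were counted is not given in the sources used here, so these levels are uncertain to that extent.

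The make-up of the peroxiredoxin pool followed these differences. Prdx5 made up 17.6%, 9.94%, 16.8% and 11.3% of the summed TPM of Prdx1 to Prdx6 in deleted replicates 1 to 4, against 8.09% to 8.92% in the intact genotype. Prdx2 made up 30.0% ± 2.74 in deleted and 36.1% ± 2.23 in intact libraries, and Prdx1 30.4% ± 2.13 and 27.7% ± 1.73. Prdx3 of mitochondria, no member of the 10, made up 9.22% ± 0.657 and 8.06% ± 0.851, and Prdx4 of the endoplasmic reticulum 8.40% ± 1.00 and 10.5% ± 0.579 (SD, n = 4 each).

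**Figure D3:**
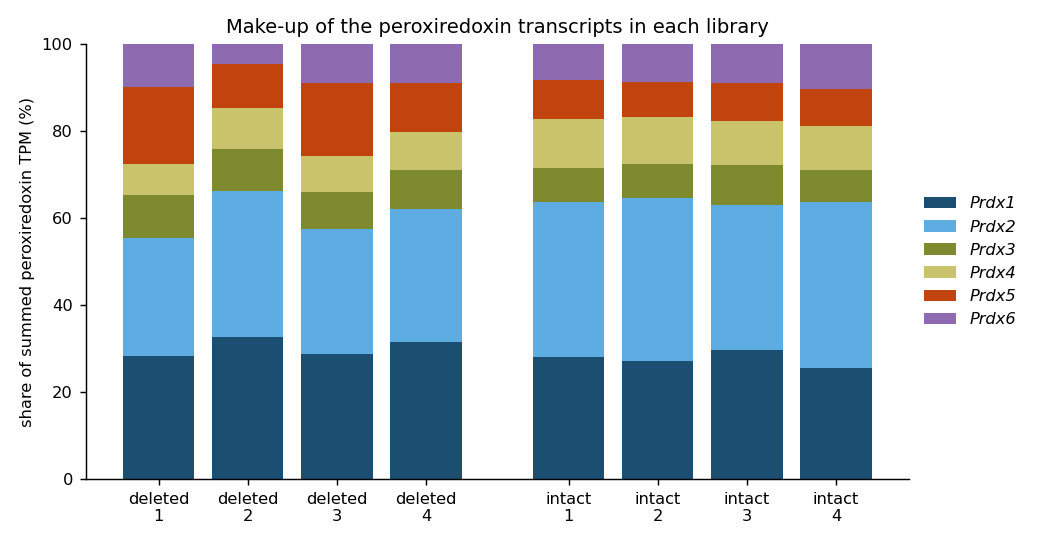
Stacked bars give the share (%, axis from 0 to 100) of each peroxiredoxin in the summed peroxiredoxin TPM of each library, the 4 Kat7 deleted libraries on the left and the 4 Kat7 intact libraries on the right. The Prdx5 segment is between 9.94% and 17.6% in deleted libraries and between 8.09% and 8.92% in intact ones.

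The spread among cultures differed by gene. The SD of log2 CPM was larger in the deleted genotype for 6 of the 10 genes and larger in the intact one for 4, beside 86.6% of all tested genes with the larger SD in the deleted genotype. The 4 were Txn1, Txnrd1, Txnrd2 and Prdx1. Over all tested genes the median SD was 0.38 in deleted and 0.17 in intact libraries.

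Genes whose values lay closest to those of 3 members were found by the root mean square difference of log2 CPM, centred on the intact mean, over the 8 libraries. Closest to Txnrd1 were Srsf10, a splicing factor gene, at 0.04, Csnk1e, a casein kinase gene, at 0.08, and Ankrd49 at 0.08. Closest to Srxn1 were Inca1 at 0.11, the lysophospholipase gene Pnpla7 at 0.17 and Tifa, an adaptor of innate immune signalling, at 0.19. Inca1 had few reads, with a mean of 2.57 ± 0.832 CPM in deleted and 0.832 ± 0.127 CPM in intact libraries. Closest to Txnip were Efhd1, a calcium-binding mitochondrial protein gene, at 0.28, Skap2, an adaptor of immune cell signalling, at 0.46 and H2-T23, a non-classical class I antigen gene, at 0.47. Efhd1 had a mean of 22.5 ± 23.7 CPM in deleted and 8.36 ± 3.32 CPM in intact libraries. Such likeness is a description of 8 libraries.

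Outside the 10 genes, the wider pathway was described by 10 lists with 99 genes, of which 94 were tested. Called genes were 10 higher and 2 lower, 12.8% of those tested, beside 7.90% of all tested genes. Of these 12 genes 8 came from the NRF2 list. The lists were chosen with earlier results of these data known. The adjusted p-values that follow are by edgeR over all genes.

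Proteins with a thioredoxin fold and glutaredoxins had 0 of 19 called by edgeR, with 2 higher and 2 lower at p under 0.05 before adjustment and 0 called by DESeq2 or by limma-voom with sample weights. Their median log2 fold change was 0.01. Tmx3, a membrane oxidoreductase of the endoplasmic reticulum and the most abundant, had 154 ± 19.5 CPM in deleted and 199.8 ± 26.3 CPM in intact libraries (adjusted p = 0.140). The other peroxidases had 1 of 8 called. Gpx4, the glutathione peroxidase that repairs lipid peroxides, rose 2.32-fold, with 16.7 ± 2.59 CPM in deleted and 7.21 ± 1.12 CPM in intact libraries (edgeR adjusted p = 0.00945), and was higher in 4 of 4 deleted libraries than in any intact one. The Gpx4 call was lost with littermates summed (edgeR adjusted p = 0.063). Neither Prdx3 nor Prdx4 was called, with log2 fold changes of 0.23 ± 0.16 and -0.30 ± 0.12 (edgeR adjusted p = 0.398 and 0.159).

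Superoxide dismutases had 0 of 4 called by edgeR, 1 higher at an unadjusted p under 0.05, 1 higher by DESeq2 and 0 by limma-voom with sample weights, and the most abundant, mitochondrial Sod2, had 157 ± 53.9 CPM in deleted and 142 ± 17.0 CPM in intact libraries (edgeR adjusted p = 0.722). Methionine sulfoxide reductases, which draw on thioredoxin, had 0 of 4 called by edgeR, 1 lower at an unadjusted p under 0.05 and 1 lower each by DESeq2 and by limma-voom with sample weights, and Msra had 35.0 ± 7.76 and 28.5 ± 5.90 CPM (edgeR adjusted p = 0.377). Sestrins and Park7 had 1 of 4 called. Sesn1, a stress protein that restrains mTOR signalling, rose with 51.7 ± 10.9 CPM in deleted and 28.5 ± 3.06 CPM in intact libraries (edgeR adjusted p = 0.0225). This call was lost in 7 of 20 alternatives.

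Proteins served by thioredoxin, among them the ribonucleotide reductase subunits, had 0 of 6 called by edgeR, 1 lower at an unadjusted p under 0.05, 1 lower by DESeq2 and 0 by limma-voom with sample weights. The most abundant, Rrm1, had 361 ± 126 CPM in deleted and 482 ± 22.7 CPM in intact libraries (edgeR adjusted p = 0.305). In the list of Txnip relatives and regulators 2 of 9 were called. Arrdc1, another alpha-arrestin, rose with 4.601 ± 0.522 CPM in deleted and 2.09 ± 0.597 CPM in intact libraries (edgeR adjusted p = 0.0395), and the beta-arrestin gene Arrb2 fell, with 19.4 ± 1.71 and 28.6 ± 1.66 CPM (edgeR adjusted p = 0.0261). Arrdc1 lost its call in 13 and Arrb2 in 8 of 20 alternatives.

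NADPH supply genes had 0 of 12 called by edgeR, 3 higher at an unadjusted p under 0.05, 2 higher by DESeq2 and 0 by limma-voom with sample weights. Tkt, transketolase, had 529.96 ± 62.9 CPM in deleted and 401 ± 16.9 CPM in intact libraries, with no overlap (edgeR adjusted p = 0.0981). Genes for making selenoproteins, a class that includes the thioredoxin reductases, had 0 of 9 called by edgeR, 1 higher and 1 lower at p under 0.05 before adjustment, 1 lower by DESeq2 and 1 higher by limma-voom with sample weights. Sephs1 had 119 ± 19.3 CPM in deleted and 154 ± 7.09 CPM in intact libraries (edgeR adjusted p = 0.124).

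The NRF2 list, which held none of the 10 genes, had 7 of 19 called higher and 1 lower, beside 5.10% and 2.80% of all tested genes. Its median log2 fold change was 0.34. In the same cultures 4 of 9 astrocyte markers were called higher. Calls of the NRF2 list by smallest p were Slc7a11, Nqo1, Blvrb and Gstm1, at 7.73, 7.66, 2.44 and 5.93-fold (edgeR adjusted p = 0.00211, 0.00211, 0.00485 and 0.00692). The called gene that fell was Bach1, a repressor of NRF2 targets, named after its values were seen, with 37.2 ± 2.94 CPM in deleted and 52.4 ± 5.02 CPM in intact libraries (edgeR adjusted p = 0.0376). Bach1 lost its call in 11 of 20 alternatives. Nfe2l2, which encodes NRF2, and Keap1 were not called, with log2 fold changes of 0.16 ± 0.13 and 0.23 ± 0.10 (edgeR adjusted p = 0.476 and 0.182).

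**Figure D4:**
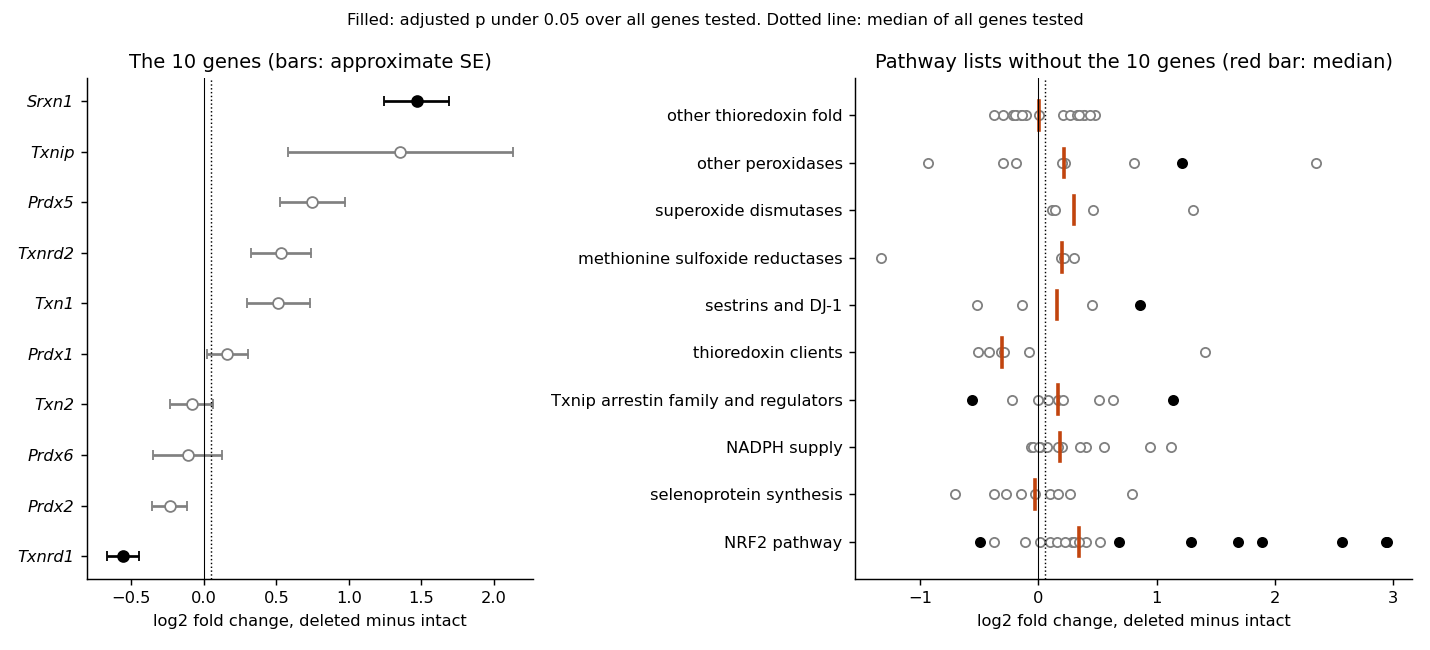
Log2 fold change, deleted minus intact, of the 10 genes with approximate SE (left) and of each tested gene in the 10 pathway lists with the list median as a red bar (right). Filled points passed an adjusted p under 0.05 by edgeR, and the dotted line is the median of all tested genes, 0.05. Srxn1 (1.47) and Txnrd1 (-0.55) are the filled points among the 10, and the NRF2 list holds 8 of the 12 filled points on the right.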

How the data were processed

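Polyadenylated RNA of 8 cultures was read from a single end. The values deposited by the authors are unnormalized whole-number counts for each gene. The tools named in the submitters' processing notes are featureCounts and CASAVA 1.8.2, with build mm10. The aligner and strand setting are not given in the sources used here. Gene length in the table is the authors' deposited value in bases. Symbols came from RefSeq GRCm38.p6 (mm10) by Entrez identifier, with 25275 of 27179 matched.

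The members and lists were chosen with earlier results of these data known. The genotypes were compared with edgeR 4.0.16 (R 4.3.3): filterByExpr (minimum count 10), TMM, robust dispersions, quasi-likelihood F test, 4 deleted against 4 intact, no covariate, Benjamini-Hochberg over 13498 genes. The approximate SE of a log2 fold change is its size divided by the root of the F statistic. P-values measure the spread between these cultures, each from a separate fetus per the series design. Littermates entered the fit as separate cultures, so these p-values do not allow for likeness within a litter. The fit was tested on simulated data with the same dispersions in both genotypes and no litters. That test does not cover the unequal spread or the shared litters of these cultures. The rule for named genes took the 10 members, Kat7, up to 4 called genes or else the most abundant of each list, the most abundant marker of each cell type and 3 likeness partners of Txnrd1, Srxn1 and Txnip. Alternatives used DESeq2 1.42.0, limma 3.58.1 and other scalings, filters and libraries. TPM used the deposited gene lengths and no TMM adjustment, and log2 CPM a prior count of 2.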

Additional observations from a re-analysis of the deposited data

Results flagged for a closer look

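In each group of 4 libraries the highest or lowest value was checked for standing far from the other 3, and 11 of 94 groups did so, where chance gives about 1 in 20. Among the 10 genes, Prdx2 was at 321 CPM in intact replicate 2, with the other intact libraries between 268 and 277 CPM. Prdx6 was at 159 CPM in intact replicate 1, below the other intact libraries at 182 to 185 CPM. Srxn1 per 100 TPM of Txnrd1 was 11.5 in intact replicate 4, below 14.9 to 15.2 in the others. Sod2 was at 238 CPM in deleted replicate 1, with the other deleted libraries between 128 and 133 CPM.

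Among cell type markers, deleted replicate 1 stood apart for the summed astrocyte list, at 4030 CPM with the others between 549 and 1020 CPM. Deleted replicate 2 stood apart for Col3a1, at 334 CPM with the others between 0.087 and 0.220 CPM. It also did so for Tek, at 13.9 CPM with the others between 0.951 and 2.61 CPM, and for the summed endothelial list, at 21.6 CPM with the others between 2.66 and 4.78 CPM. In intact libraries, the summed endothelial list was at 9.09 CPM in replicate 2, the mural and fibroblast list at 2.44 CPM in replicate 4 and Alas2 at 0.785 CPM in replicate 4.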

How the results depend on the processing

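Beside the reported setting 20 others were run, 2 of them chosen after seeing the data (leaving out deleted replicates 1 and 3, or 1 and 4). Calls over all genes, 1066 as reported, numbered 673 with scaling by total counts (309 higher and 364 lower, against 688 and 378), 2200 with DESeq2, 2307 with limma-voom and sample weights, 422 with litter as a random block, 193 with littermates summed and 2299 without deleted replicates 1 and 3. Leaving out 1 intact library gave 189 to 261, and leaving out 1 deleted library gave 755 to 2182. Of the 10 genes, 2 were called higher with DESeq2 and with limma-voom and sample weights, 0 were called lower with littermates summed, and leaving out 1 library gave 0 to 2 higher and 0 to 1 lower. Pathway genes called higher numbered 6 with littermates summed and 6 to 17 with 1 library left out. Those called lower numbered 5 with DESeq2, 5 with limma-voom and sample weights, 1 with no count filter, 0 with litter as a random block, 0 with littermates summed, 5 without deleted replicates 1 and 3, and 0 to 4 with 1 library left out. Txnip turned to -0.82 without deleted replicates 1 and 3, and Prdx6, at -0.302 without deleted replicate 1, turned to 0.0868 without deleted replicate 2. Ordered by CPM in place of TPM, 6 of the 10 genes kept their rank. The causes were not tested. Same-numbered libraries of the genotypes correlated at 0.0961, 0.221, 0.110 and 0.331, all above 0. Differently numbered ones correlated at -0.27 to 0.251, most of them below 0. What the replicate numbers stand for was not tested. No litter held both genotypes, and the reported fit did not take the numbers to pair libraries. With a replicate block 319 genes were called over all genes, Srxn1 with a log2 fold change of 1.42 among them, 0 of the 10 genes were called lower and 0 pathway genes were called lower. Depth limits Txnrd2 and Txnip most. Txnrd2 had fewer than 200 reads in every library, and Txnip in all but deleted replicates 1 and 3.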
